A study of Mus musculus with 14 samples.

Results

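Serum proteins were compared between mice whose skin wounds had been under negative pressure for 2 h (NP 2 h) and the 0 h control, with 2 samples in each group, so that 4 of the 14 samples of the series carry the comparison. The mice were 8-week-old male C57BL/6JNarl in all 7 groups, and carried full-thickness skin wounds treated either with NP or with a wet dressing at atmospheric pressure (AP). Besides NP 2 h, the treated groups were NP at 0.5 and 16 h and AP at 0.5, 2 and 16 h, and the 0 h control is the group that the design note counts as AP at 0 h. All of them were read on a membrane of spotted antibodies that captures 111 analytes, and all 111 are described here. Serum of several mice was combined for each membrane. The paper describes the array quantification as an average of duplicate values over 2 independent experiments. It does not say whether these experiments are the 2 samples of a group. No source says that both samples of a group came from separate mice, so the p-values measure only the spread between samples, which may be technical. The blood had stood for 0.5 to 2 h before it was spun, and the design note leaves the 0 h control out of the repeated experiments.

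Negative pressure wound therapy draws fluid from a wound through a sealed dressing under suction. A wound first clots, as platelets release their granules and fibrin forms, and fibrinolysis inhibitors protect the clot. Neutrophils and then monocytes follow chemokine gradients into the tissue, endothelial cells put adhesion molecules on their surface and shed some of them into the blood, and the liver adjusts the plasma proteins it secretes. Serum collects proteins from all of these sources, and from clotting in the tube, so that a serum level does not name the tissue it came from.

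The NP 2 h membranes were much dimmer than the 0 h membranes, and this sets what can be compared. The 3 reference spots, which carry the same material on every membrane, averaged 27336 and 23486 raw intensity units in the NP 2 h samples, against 163044 and 168078 in the 0 h control, where they were 6.52-fold brighter. The reference spots of the NP 2 h membranes were uneven as well, with the brightest 2.97 and 2.60 times the dimmest, against 1.14 and 1.09 in the 0 h control. At the separate positions, the 0 h control was 8.35-fold brighter at A1, 11.3-fold at A23 and 3.87-fold at J1. Levels are therefore given as a percentage of the mean of the sample's own 3 reference spots, and as the rank of an analyte within its membrane (1 is the brightest of 111), which a single factor per membrane does not change. Both 0 h membranes were bright and both NP 2 h membranes dim, so that brightness and group cannot be told apart. The negative control spot read 72 and 24 raw units at NP 2 h and 73 and 21 at 0 h, and 87 analytes lay above it in both NP 2 h samples, 23 in 1 of them and 1 in neither, against 110, 1 and 0 in the 0 h control. The replicates of NP 2 h differed by a median of 19.2% and those of the 0 h control by 12.9%.

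Relative to the reference spots, 69 of 111 analytes (62.2%) were higher at NP 2 h and 11 (9.91%) were lower, while 31 did not pass the test (limma, adjusted p under 0.05 over 111 analytes). The median analyte differed by 0.69 on the log2 scale. In 75 analytes (67.6%) both NP 2 h samples lay above both 0 h samples, and in 14 (12.6%) below. This split follows the scaling: with the authors' normalized intensity, which does not adjust between groups, 5 analytes (4.5%) were higher and 101 (91%) lower, and 59 analytes were higher relative to the reference spots but lower in the authors' values. In raw intensity, both NP 2 h samples were brighter than both 0 h samples for 5 analytes and dimmer for 102. Median scaling gave 7 (6.31%) higher and 71 (64%) lower, and quantile normalization gave 26 (23.4%) higher and 36 (32.4%) lower. Scaled by the references of row A alone, 88 (79.3%) were higher and 3 (2.7%) lower, by the reference of row J 32 (28.8%) and 36 (32.4%), and by a plane fitted through all 3, 64 (57.7%) and 10 (9.01%). Within the membrane, 36 analytes (32.4%) gained rank without overlap of the samples and 43 (38.7%) lost rank.

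**Figure D1:**
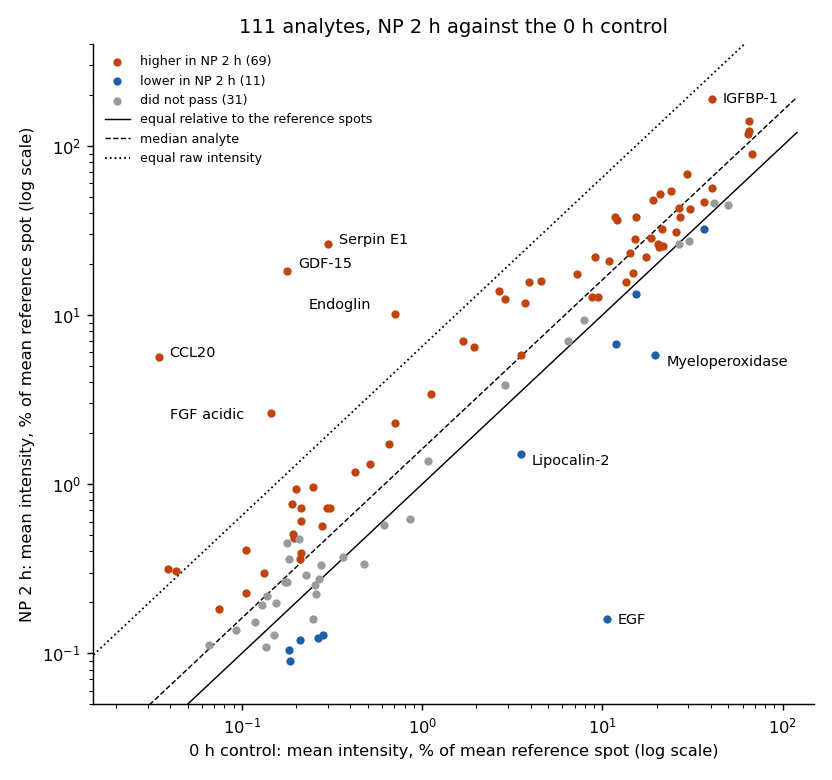
Mean intensity of 111 analytes as a percentage of the mean reference spot at NP 2 h (vertical axis, log scale) against the 0 h control (horizontal axis, log scale), n = 2 per group, coloured by the limma call with reference scaling. Of the 69 analytes called higher, 5 lie above the dotted line of equal raw intensity without overlap of their raw values (CCL20, GDF-15, Serpin E1, FGF acidic and Endoglin), and EGF lies farthest below the line of equal values.

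**Figure D2:**
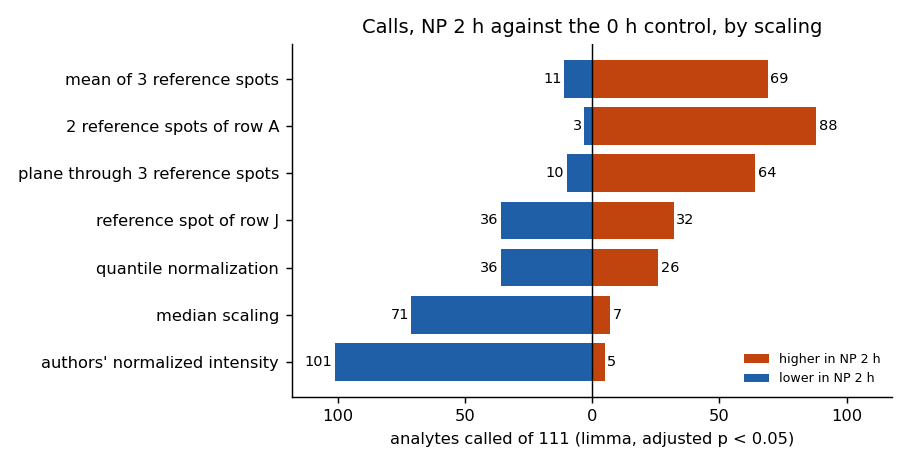
Number of the 111 analytes called higher (right) or lower (left) at NP 2 h than in the 0 h control (limma, adjusted p under 0.05) under 7 scalings. The count called higher ranges between 5 with the authors' normalized intensity and 88 with the reference spots of row A.

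Fewer analytes were called in 1 direction across several scalings. Called in the same direction with reference scaling, the authors' normalized intensity, median scaling and quantile normalization were 5 analytes that rose (4.5% of 111) and 11 that fell (9.91%). The 5 that rose were CCL20, GDF-15, Serpin E1, FGF acidic and Endoglin, and they were also called under every other limma setting that kept them, 17 in all for each but CCL20, which was not among the analytes tested in 1 of them (the lowest 0.25 left out) and so had 16. Of the 11 that fell, EGF and Myeloperoxidase (1.8% of 111) were called under all 17.

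CCL20 is a chemokine that draws lymphocytes and dendritic cells bearing the receptor CCR6. It read 6.69% and 4.61% of the reference at NP 2 h, against 0.0448% and 0.0244% in the 0 h control, where it was among the dimmest spots and 1 of the 2 samples was not above the negative control. The raw intensities were 1830 and 1082 at NP 2 h and 73 and 41 in the 0 h control. It rose by 7.39 ± 0.50 on the log2 scale (SE, limma adjusted p = 1.3e-09), a size that rests in part on a spot at background: it was 7.83 without that sample and 9.30 with the negative control subtracted. The call held in both, and its ranks were 49 and 55 at NP 2 h, against 111 and 110. The highest of the 10 other treated samples read 1.02%.

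GDF-15 is a hormone of the TGF-beta superfamily that stressed cells release and that reduces appetite through a brainstem receptor. It read 16.6% and 19.6% at NP 2 h, against 0.167% and 0.189% in the 0 h control, a rise of 6.67 ± 0.23 (SE, limma adjusted p = 4.1e-13). Its ranks were 37 and 35 at NP 2 h, against 95 and 88. The other treated samples lay between 0.668% and 7.69%, all below NP 2 h and all above the 0 h control.

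Serpin E1, also called PAI-1, inhibits the plasminogen activators and so slows the breakdown of fibrin. It read 24.3% and 28.2% at NP 2 h, against 0.336% and 0.265% in the 0 h control. The rise was 6.45 ± 0.17 on the log2 scale (SE, limma adjusted p = 1.2e-14), with ranks of 29 and 27 at NP 2 h, against 67 and 71. The 10 other treated samples ranged over 1.04% to 22.0%, so that both NP 2 h samples were the highest of the 14.

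FGF acidic (FGF-1), a growth factor for fibroblasts and vessels that cells release without a signal peptide, read 2.24% and 3.00% at NP 2 h, against 0.126% and 0.165% in the 0 h control. It rose by 4.17 ± 0.32 (SE, limma adjusted p = 5.7e-09), and moved to rank 58 in both NP 2 h samples, against 101 and 92. Unlike the 3 analytes above, its mean at NP 2 h was only the fourth highest of the 7 groups.

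Endoglin is a TGF-beta co-receptor of endothelial cells whose outer part is shed into the blood. It read 9.29% and 10.9% at NP 2 h, against 0.853% and 0.565% in the 0 h control, a rise of 3.86 ± 0.16 (SE, limma adjusted p = 2.9e-12). Its rank was 47 in both NP 2 h samples, against 58 and 59, a smaller step than its change in level. The 10 other treated samples lay between 9.03% and 37.2%, so that NP 2 h was near the low end of the treated samples and far above the 0 h control.

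EGF moved the other way. This growth factor, which drives the spread of keratinocytes over a wound, is made in large amounts by the mouse submandibular gland and is also carried by platelets. It read 0.128% and 0.192% at NP 2 h, of which 1 sample was above the negative control, against 11.1% and 10.1% in the 0 h control. The raw intensities were 35 and 45 at NP 2 h and 18067 and 16900 in the 0 h control. It fell by 6.07 ± 0.33 on the log2 scale (SE, limma adjusted p = 1.1e-10), a size that rests in part on a spot below the negative control, and by 5.78 without that sample, where it still passed, and its ranks were 101.5 and 98 at NP 2 h, against 38 in both 0 h samples. The 10 other treated samples read 0.376% to 0.941%, so that the 0 h control stood above every other sample and NP 2 h below every other sample, and EGF was the one analyte of the 111 with both 0 h samples above all 12 others.

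Myeloperoxidase, the enzyme of neutrophil granules that makes hypochlorous acid, read 4.98% and 6.66% at NP 2 h, against 20.6% and 18.8% in the 0 h control. It fell by 1.77 ± 0.12 on the log2 scale (SE, limma adjusted p = 1.5e-09). Its ranks were 55 and 53 at NP 2 h, against 24 and 25. Both NP 2 h samples were the lowest of the 14, since the 10 other treated samples ranged over 10.5% to 22.1%.

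**Figure D3:**
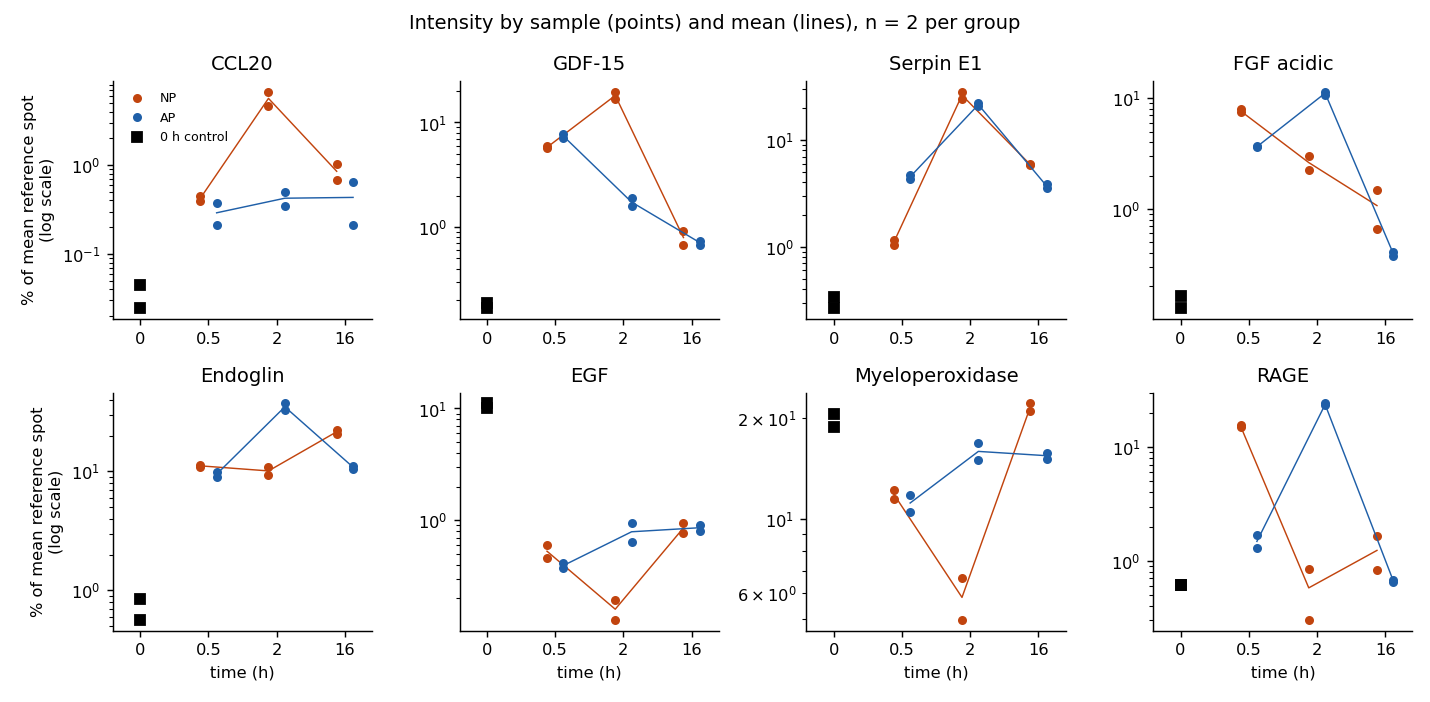
Intensity as a percentage of the mean reference spot (log scale, each panel with its own range) by time for the 7 analytes called under every setting that kept them and for RAGE, with the NP samples, the AP samples and the 0 h control as points and the group means joined by lines, n = 2 per group. CCL20, GDF-15 and Serpin E1 have their highest samples at NP 2 h and Myeloperoxidase its lowest, while RAGE at NP 2 h read 0.300% and 0.852%, around the 0 h control.

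The other 9 analytes that fell under the 4 scalings held less firmly. C1q R1, the surface protein CD93 shed by endothelial and myeloid cells, fell by 0.82 ± 0.11 (SE, limma adjusted p = 4.6e-06), with 6.61% and 6.80% at NP 2 h against 12.0% and 11.7% in the 0 h control, and only the scaling by a plane through the 3 references ended the call. Lipocalin-2, which starves bacteria of iron, read 1.65% and 1.35% at NP 2 h, against 4.5% and 2.54%. It fell by 1.18 (limma adjusted p = 0.0091), but not when scaled by row A of the references or without either NP 2 h replicate 2 or 0 h replicate 1. CCL6 and Angiopoietin-like 3 fell by 0.20 each, calls that ended without NP 2 h replicate 1 or 0 h replicate 1, and for Angiopoietin-like 3 also without 0 h replicate 2. Both turned and were called higher when scaled by row A, by 0.34 (limma adjusted p = 0.00038) and 0.35 (adjusted p = 0.00012), as was Angiopoietin-like 3 with the plane, by 0.33 (adjusted p = 0.00067). The remaining 5 were dim: GM-CSF, CD160, CXCL10 and IL-3 were above the negative control in 1 NP 2 h sample each, with falls of 1.13, 1.06, 0.88 and 0.83, and CCL2, the main chemokine for monocytes, was above it in neither. CCL2 read 0.165% and 0.0809% at NP 2 h, against 0.309% and 0.223% in the 0 h control. With reference scaling alone it was at least 1.55-fold lower, a bound set by the lowest signal above the negative control in each NP 2 h sample (limma adjusted p = 0.049 for the measured fall). Scaled by row A, CCL2 differed by -0.64 (limma adjusted p = 0.25). The calls of all 5 dim analytes ended with row A, with an offset of 1% of the reference and with only the groups compared. With 1 sample left out, the difference of CCL2 ranged over -1.70 to -0.67. Without 0 h replicate 1, 3 analytes in all were called lower (C1q R1, EGF and Myeloperoxidase), against 11 with it, and 7 were without NP 2 h replicate 1 or without 0 h replicate 2.

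Ranks, which come from the same raw values, were compared without a test. The 6 largest gains without overlap were those of CCL20, GDF-15, Serpin E1, FGF acidic, IL-10 and IL-13, and the 6 largest losses were those of EGF, GM-CSF, CCL2, Myeloperoxidase, IL-1a and IL-3. IL-10, which restrains inflammatory cytokine production, ranked 85 and 83.5 at NP 2 h, against 110 and 109 in the 0 h control. Its levels were 0.289% and 0.319% at NP 2 h, against 0.0485% and 0.0381%, a difference of 2.82 ± 0.35 (SE, limma adjusted p = 2.5e-06). It passed as higher under each of the 16 limma settings that kept it but the authors' normalized intensity, where the difference was 0.03. Its raw intensity was not higher at NP 2 h without overlap, so the rise is one relative to the dimmer reference spots. In replicate 1 it lay close to the negative control, which read 0.263% at NP 2 h and 0.0448% in the 0 h control. IL-1a ranked 74 and 99 at NP 2 h, against 64 and 61, while its level difference of -0.66 did not pass (limma adjusted p = 0.19).

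**Figure D4:**
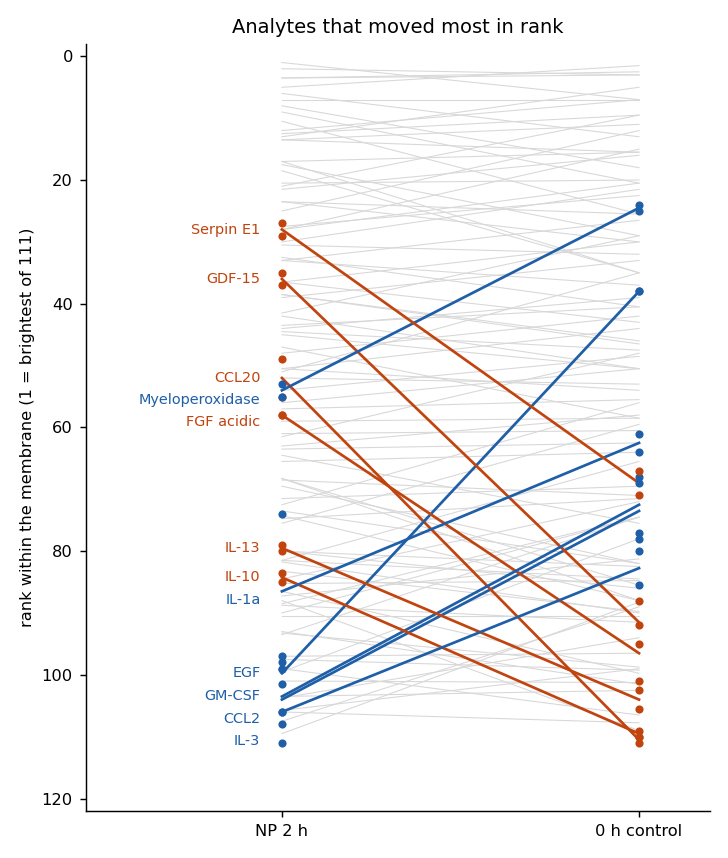
Rank within the membrane (1 is the brightest of 111) at NP 2 h (left) and in the 0 h control (right), with points for the 2 samples of each group and lines between the mean ranks, for the 6 largest gains (orange) and the 6 largest losses (blue) without overlap over all other analytes (grey). GDF-15 moved to ranks 37 and 35 at NP 2 h, against 95 and 88 in the 0 h control.

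With reference scaling the hemostasis and fibrinolysis proteins had the highest median among the groups of analytes, 1.70 on the log2 scale, and 4 of 4 were higher. Over all analytes 62.2% were higher, 9.91% lower and the median was 0.69. With the plane through the 3 references the CC chemokines had the higher median, 1.54 against 1.30. With the authors' normalized intensity Serpin E1 alone was higher and the other 3 were lower, and with quantile normalization 2 were higher and 0 lower. Over all analytes the authors' normalized intensity gave 91% lower, and quantile normalization 23.4% higher and 32.4% lower. The counts of the other groups of analytes are to be read beside these shares too. PDGF-BB, the platelet mitogen for fibroblasts and pericytes, read 14.1% and 17.7% at NP 2 h, against 4.27% and 4.85% (difference 1.80 ± 0.31, SE, limma adjusted p = 0.0001). Thrombopoietin, the liver hormone that drives platelet production, read 35.1% and 37.6%, against 12.8% and 11.2% (1.60 ± 0.10, adjusted p = 4.2e-10), and both NP 2 h samples were the highest of the 14. CFIII, the tissue factor that starts coagulation, was dim at 0.819% and 0.630%, against 0.342% and 0.250% (1.30 ± 0.25, adjusted p = 0.0002). The calls of PDGF-BB and CFIII ended under quantile and median scaling, and that of Thrombopoietin under median scaling. The call of CFIII also ended when scaled by the reference of row J (0.55, limma adjusted p = 0.11). The 5 proteins fixed as platelet markers did not move together: PDGF-BB, P-Selectin and Angiopoietin-1 were higher, EGF fell and CCL5 did not pass. Their summed level was 144.6% and 171.0% at NP 2 h, against 104.3% and 103.2%. This was a smaller rise than that of the sum over all analytes, which was 1.72-fold. Angiopoietin-1 made up most of it, at 82.1% and 97.0% against 67.2% and 67.7%. That analyte was called lower in 4 of the 7 scalings, and its ranks were 5 in both NP 2 h samples, against 2 and 1.

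Of the 5 adhesion molecules, all were higher relative to the reference spots (median 1.30), beside 62.2% of all analytes, while 1 was higher and 4 were lower with the authors' normalized intensity, and 3 were higher and 1 was lower with quantile normalization. With the plane through the 3 references all 5 were higher, beside 57.7% of all analytes. Their median with the plane, 0.58, was no higher than that of all analytes, 0.58. E-Selectin, which activated endothelium displays to slow leukocytes, read 35.8% and 39.6% at NP 2 h, against 12.1% and 11.5% (1.68 ± 0.07, limma adjusted p = 6.5e-12), with rank 17 in both samples, against 35 in both. P-Selectin, stored in platelets and endothelial cells, read 48.1% and 55.3%, against 21.5% and 20.3% (1.30), and ranked 9 in both samples, against 21 and 20. ICAM-1, an endothelial ligand of leukocyte integrins, showed the least of this group (0.30), and its call ended without NP 2 h replicate 2 or without 0 h replicate 2. It was called higher in 3 of the 7 scalings and lower in 4.

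Among 11 CC chemokines, 6 were higher, 2 were lower and 3 did not pass (median 1.19), beside 62.2% higher among all analytes, against 1 higher and 9 lower with the authors' normalized intensity and 6 higher and 3 lower with quantile normalization. After CCL20, the monocyte chemokine CCL12 differed most, at 1.18% and 0.694% against 0.204% and 0.195% (2.18 ± 0.30, limma adjusted p = 7.2e-06). CCL22, a ligand of CCR4 on T cells, read 10.2% and 13.4%, against 3.93% and 3.52% (1.65). CCL11 and CCL21, ligands of eosinophil and lymph node homing receptors, differed by 1.30 and 1.19. The CXC and CX3C chemokines differed less, with 3 of 9 higher and 1 lower (median 0.29), 0 higher and 9 lower with the authors' normalized intensity, and 0 higher and 3 lower with quantile normalization. The higher ones were CXCL13 (1.63), a B cell chemokine, CXCL16 (1.45) and LIX (0.91), a neutrophil chemokine which at 115% and 130%, against 63.9% and 66.2%, was among the 4 brightest analytes of all 4 samples. The neutrophil chemokines CXCL1 and CXCL2 did not pass, at -0.23 and -0.62.

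The inflammatory cytokines were near the floor of the membranes. Their counts stand beside 62.2% higher and 9.91% lower over all analytes with reference scaling. The shares over all analytes were 4.5% higher and 91% lower with the authors' normalized intensity, and 23.4% higher and 32.4% lower with quantile normalization. Of the 4 members of the IL-1 family 2 were higher, IL-33 (0.900% and 1.03%, against 0.225% and 0.270%, 1.96 ± 0.28) and IL-1ra (1.12, a call that ended without 0 h replicate 1), and IL-1a and IL-1b did not pass. With the authors' normalized intensity 0 of these 4 were higher and 4 lower, and with quantile normalization 1 was higher and 1 lower. IL-6, the inducer of the hepatic acute phase, read 0.519% and 0.932% at NP 2 h, against 0.212% and 0.214% (1.71 ± 0.46, limma adjusted p = 0.0040). LIF (1.42) and IL-11 (1.23) of the same receptor family were also higher. The calls of IL-6, LIF and IL-11 ended with the authors' normalized intensity, median scaling, quantile normalization and the reference of row J. Those of IL-6 and IL-11 also ended with the negative control subtracted. The call of IL-11 ended without NP 2 h replicate 1 or 0 h replicate 1, and its difference ranged over 0.56 to 1.89 with 1 sample left out. IL-12 p40 (-0.42, adjusted p = 0.18), IL-23 (0.59) and IL-27 p28 (0.60) did not pass with reference scaling. IL-12 p40 was called lower in 5 of the 7 scalings and higher in 0. With the authors' normalized intensity 0 of these 6 were higher and 6 lower, and with quantile normalization 0 were higher and 1 lower. Among the 12 lymphocyte cytokines, interferons and TNF, 5 were higher and 7 did not pass (median 0.71), and 0 were higher and 10 lower with the authors' normalized intensity, and 2 higher and 1 lower with quantile normalization. IL-10 (2.82), IL-13 (1.97) and IL-15 (1.24) led them, but with the authors' normalized intensity they differed by 0.03, -0.83 and -1.55. The call of IL-15 ended without NP 2 h replicate 2 or 0 h replicate 1, with 0.67 to 1.82 when 1 sample was left out. IFN-g (0.05), TNF-a (0.24) and IL-17A (0.55) did not pass. In the 5 hematopoietic growth factors Flt-3 Ligand (2.05) and M-CSF (0.21, a call that ended without NP 2 h replicate 1 or either 0 h replicate) were higher, IL-3 and GM-CSF fell, and G-CSF did not pass, with 0 higher and 5 lower with the authors' normalized intensity and 0 higher and 3 lower with quantile normalization. M-CSF was called higher in 2 of the 7 scalings and lower in 5.

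**Figure D5:**
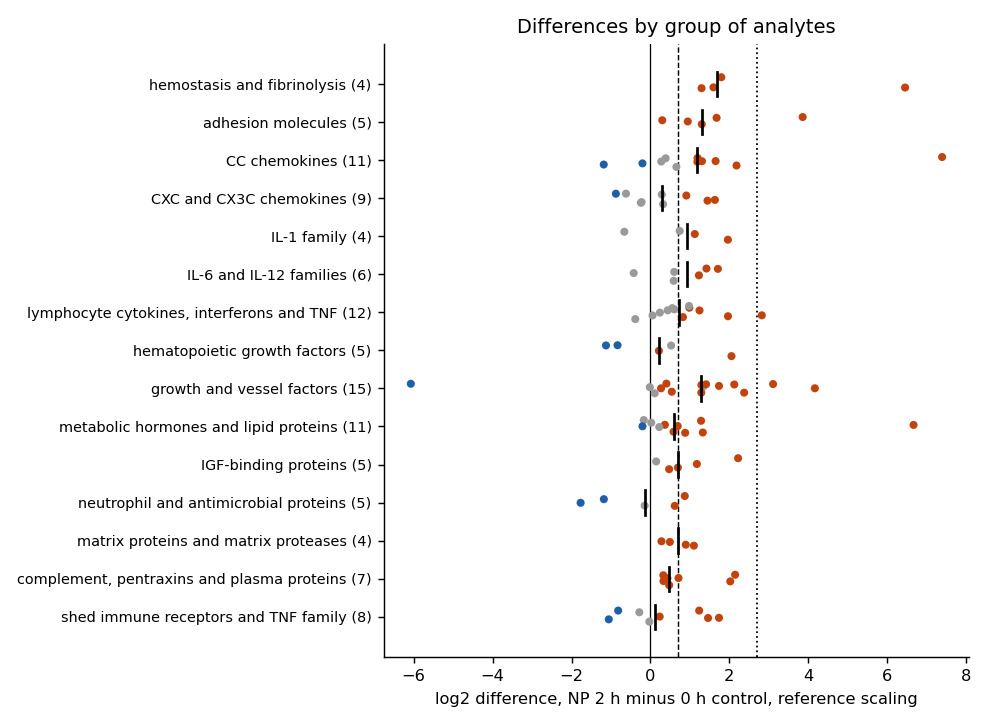
Log2 difference of each analyte, NP 2 h minus the 0 h control, with reference scaling, by group of analytes (number of members in brackets), coloured orange where higher, blue where lower and grey where the limma test was not passed, with black bars at the group medians. The dashed line marks the median of all analytes, 0.69, and the dotted line the log2 of the 6.52-fold difference in reference brightness, which few analytes exceed.

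Growth and vessel factors ranged from EGF, the largest fall of all analytes (-6.07), to FGF acidic (4.17). Of the 15, 11 were higher, beside 62.2% of all analytes, EGF was lower and 3 did not pass (median 1.29). There were 1 higher and 12 lower with the authors' normalized intensity, and 4 higher and 5 lower with quantile normalization. After FGF acidic the largest differences were those of PD-ECGF, a thymidine phosphorylase that promotes vessel growth (3.11 ± 0.68, SE), and of Serpin F1 (PEDF), which inhibits it (2.37 ± 0.12). PD-ECGF was dim and its replicates were far apart, at 0.483% and 0.149% against 0.0626% and 0.0155%, and the difference ranged over 2.10 to 4.12 with 1 sample left out. Its call ended with the authors' normalized intensity, where the difference was 0.31, with median scaling and with an offset of 1% of the reference. Its raw intensity was not higher at NP 2 h without overlap. Serpin F1 read 14.3% and 13.3% at NP 2 h, against 2.75% and 2.57%, and its call ended only with the authors' normalized intensity. DKK-1, a secreted inhibitor of Wnt signalling, read 12.1% and 13.5%, against 8.74% and 8.87% (0.54 ± 0.10, limma adjusted p = 0.00013), less than the median analyte. It was lower with the authors' normalized intensity, by 2.26, and with median scaling, by 1.26. HGF (0.11), Angiopoietin-2 (-0.02) and Amphiregulin (1.34, adjusted p = 0.064) did not pass.

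Among 11 metabolic hormones and lipid proteins 7 were higher, near the 62.2% of all analytes, Angiopoietin-like 3 was lower and 3 did not pass (median 0.59), with 1 higher and 10 lower with the authors' normalized intensity and 3 higher and 5 lower with quantile normalization. After GDF-15, Resistin, which mouse fat cells secrete, read 43.5% and 51.9%, against 20.4% and 17.7% (1.33 ± 0.09, limma adjusted p = 1.3e-09), and LDL R, the shed LDL receptor, differed by 1.28. FGF-21, the fasting hormone of the liver, read 0.424% and 0.315%, against 0.387% and 0.336% (0.02, adjusted p = 0.95), and Adiponectin differed by -0.17 (adjusted p = 0.14). FGF-21 was called lower in 3 of the 7 scalings and higher in 0, and Adiponectin lower in 4 and higher in 2. IGFBP-1, a liver protein that insulin represses, was the brightest analyte of both NP 2 h membranes at 179% and 197% of the reference, against 43.3% and 37.5% and ranks of 6 and 8 in the 0 h control (2.22 ± 0.07, adjusted p = 1.7e-13). IGFBP-3, the main carrier of IGF in plasma, read 50.2% and 58.4%, against 23.7% and 24.3% (1.18). In all, 4 of the 5 IGF-binding proteins were higher (median 0.69), with 0 higher and 5 lower with the authors' normalized intensity and 2 higher and 1 lower with quantile normalization.

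The neutrophil and antimicrobial proteins had the lowest median of the groups, -0.15, with 2 of 5 higher, 2 lower and 1 that did not pass, beside 62.2% higher and 9.91% lower over all analytes. None was higher with the authors' normalized intensity (5 lower, beside 91% over all analytes) or with quantile normalization (3 lower, beside 32.4%). Beside Myeloperoxidase and Lipocalin-2, the granule protease MMP-9 read 26.3% and 28.3% at NP 2 h, against 31.1% and 29.4% (-0.15, limma adjusted p = 0.16). Reg3G, an antimicrobial lectin, read 115% and 120%, against 67.8% and 60.9% (0.87 ± 0.07, adjusted p = 5.7e-09), but it was already the brightest analyte of 1 of the 0 h membranes and its rank overlapped. Chitinase 3-like 1 was also higher (0.61).

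All 4 matrix proteins and proteases and all 7 complement, pentraxin and plasma proteins were higher relative to the reference spots, with medians of 0.69 and 0.47, beside 62.2% higher and a median of 0.69 over all analytes. With the authors' normalized intensity all 11 of them were lower, and with quantile normalization 1 matrix and 2 plasma proteins were higher and 1 and 3 lower. MMP-3, a stromal protease, read 135% and 144%, against 67.2% and 62.9% (1.10). Pentraxin 2 (serum amyloid P), a mouse acute-phase protein, read 12.2% and 12.8%, against 3.43% and 2.31% (2.15 ± 0.13, limma adjusted p = 4.9e-10). Pentraxin 3, which endothelial and myeloid cells make on site, read 14.3% and 17.0%, against 4.53% and 3.26% (2.02 ± 0.14). The 9 proteins fixed as markers of serum were above the negative control in all 4 samples. With reference scaling 7 of them were higher, beside 62.2% of all analytes, and 0 were lower. Fetuin A, Cystatin C, RBP4 and Adiponectin among them were each called lower in 4 of the 7 scalings and higher in 1 to 3. The 9 markers summed to 205.6% and 229.6% of the reference at NP 2 h, against 147.7% and 149.1%. The sum over all analytes rose by more, to 1.72-fold that of the 0 h control.

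Of the 8 shed immune receptors and TNF family proteins 4 were higher, C1q R1 and CD160 fell and 2 did not pass (median 0.10), beside 62.2% higher and 9.91% lower over all analytes. With the authors' normalized intensity 0 were higher and 8 lower, beside 91% lower over all analytes. With quantile normalization 0 were higher and 5 lower, beside 32.4% lower over all analytes. Osteoprotegerin, the decoy receptor of RANKL, read 5.82% and 7.06%, against 2.27% and 1.63% (1.74 ± 0.16). TIM-1 (1.46) and CD40 (1.23) were higher too. Both calls ended with the authors' normalized intensity, median scaling, quantile normalization, the reference of row J and the negative control subtracted. The ranks of CD40 overlapped, at 69 and 68 against 78 and 64. RAGE, the receptor of advanced glycation end products, read 0.300% and 0.852%, against 0.613% and 0.616% (-0.28 ± 0.39, limma adjusted p = 0.52), with the 0 h samples lying between the NP 2 h samples. RAGE was called lower in 4 of the 7 scalings and higher in 0, so its place against the 0 h control follows the scaling.

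The NP 2 h values were then set against the other treated groups, in comparisons that share the NP 2 h samples. Both 0 h samples lay below all 12 other samples for 62 analytes and above them for EGF alone, with reference scaling. Both NP 2 h samples lay above all 12 others for 4 analytes (CCL20, GDF-15, Serpin E1 and Thrombopoietin) and below them for 11, among them EGF, Myeloperoxidase, C1q R1 and IL-12 p40. The test against AP 2 h, which is the same as testing the difference of both changes from the 0 h control, called 11 analytes higher (9.91%) and 70 lower (63.1%), with a median of -0.70. CCL20 was higher than in AP 2 h by 3.73 ± 0.50 (SE, limma adjusted p = 6.7e-06), with 0.349% and 0.499% there. GDF-15 was higher by 3.39 ± 0.23 (adjusted p = 5.8e-09), with 1.89% and 1.57% at AP 2 h, and IL-6 by 2.07 ± 0.46 (adjusted p = 0.00093), with 0.225% and 0.121%. These 3 were the only analytes higher under every limma setting that kept them (17 for GDF-15 and 16 for CCL20 and IL-6). The size for IL-6 rests on AP 2 h spots close to the negative control, which read 0.197% and 0.0916% there. Serpin E1 did not pass, at 0.29 ± 0.17 (adjusted p = 0.13), with 20.8% and 22.0% at AP 2 h.

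Under every limma setting that kept them (16 or 17), 13 analytes were lower at NP 2 h than at AP 2 h. RAGE differed most, by -5.56 ± 0.39 (SE, limma adjusted p = 5.8e-09), with 24.3% and 23.4% at AP 2 h, or by -4.81 without NP 2 h replicate 1 and -6.31 without NP 2 h replicate 2, and CFIII by -4.23 ± 0.25, with 13.6% and 13.4%. FGF-21 (-2.83), IL-12 p40 (-2.41) and EGF (-2.30) were also among the 13. Endoglin (-1.79), FGF acidic (-2.10) and Myeloperoxidase (-1.46) were lower with reference scaling, but the calls ended with median scaling and, for FGF acidic, with quantile normalization. Median scaling turned the balance of this comparison, with 50 analytes (45%) higher and 13 (11.7%) lower.

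Against NP 0.5 h, the earlier time under the same pressure, 23 analytes (20.7%) were higher at NP 2 h and 57 (51.4%) lower, with a median of -0.50. CCL20 (3.72 ± 0.50, SE, limma adjusted p = 1.3e-05), Serpin E1 (4.57 ± 0.17, adjusted p = 2.1e-12) and GDF-15 (1.64 ± 0.23, adjusted p = 1.9e-05) were higher under every limma setting that kept them (16 for CCL20 and 17 for the others). They read 0.394% and 0.451% (CCL20), 1.15% and 1.04% (Serpin E1) and 5.65% and 5.92% (GDF-15) at NP 0.5 h. Endoglin did not pass (-0.15, adjusted p = 0.40), with 11.3% and 10.9% at NP 0.5 h. Lower under every setting that kept them (16 or 17) were 11 analytes, among them RAGE (-4.93, or -4.18 and -5.68 without NP 2 h replicate 1 and replicate 2), FGF-21 (-3.09), CXCL10 (-2.99) and IL-12 p40 (-2.49). RAGE read 15.1% and 15.8% at NP 0.5 h, far above NP 2 h. Median scaling gave 40 (36%) higher and 14 (12.6%) lower here.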

How the data were processed

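Sera of 14 samples in 7 groups of 2 were measured on a membrane antibody array. The deposited raw values are intensities of the spots, which the authors imaged and quantified with ImageJ, with duplicate spots averaged, and whether a background was subtracted is not given in the sources used here. The authors' normalized intensity is the raw one times a factor per sample that evens the 2 samples of a group but not the groups. It was recomputed from the raw intensity, with a largest relative difference of 4.75e-06, and used as an alternative. The authors' fold columns were not used. Columns of values left unused numbered 0 among those of samples. All 111 Entrez identifiers matched a gene symbol.

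Raw intensity was divided by the mean of the sample's 3 reference spots. The log2 of this ratio was fitted with the lmFit function of limma 3.58.1 (R 4.3.3), moderated by eBayes with trend = TRUE. All 14 samples entered the fit, which lets groups of 2 borrow each other's spread, with Benjamini-Hochberg adjustment over 111 analytes and a threshold of 0.05. An exact permutation test of 2 against 2 samples cannot pass this threshold. The number of membranes limits the precision, as arrays give no depth. Alternatives were the authors' normalized intensity, quantile normalization, median scaling, subtraction of the negative control with a floor of 10 raw units (39 values of the 4 samples set to it), an offset of 1% of the reference, the lowest 0.25 of the analytes left out, a fit without trend or on the compared groups alone, a replicate block, leaving out single samples, and the methods' t-test. Scaling by the references of row A, by that of row J and by a plane through all 3 was added after the data were seen. The procedure was tested on simulated data for NP 2 h against the 0 h control. Of 30 analytes given a log2 change of 1 among 111, it found 74% on average over 20 simulations. It made 1.2 false calls in each simulation. How the procedure performs with a brightness difference between groups, or with uneven reference spots, was not tested.

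The analytes and lists were chosen with earlier results of these data known. Analytes were named that 4 scalings called in 1 direction, that had the 8 largest differences in each direction without overlap or the 6 largest gains or losses of rank, that the study names, or that led a list (up to 3), which gave 59, and further members of the lists are given by value only, chosen after their values were seen. Figures were drawn with matplotlib 3.10.9 and tables made with pandas 2.3.3 and numpy 2.4.6 under Python 3.11.15. The tissue and cell experiments of the study were not analysed here.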

Additional observations from a re-analysis of the deposited data

Results flagged for a closer look

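Among the 59 analytes named by the rule, 43 differed between NP 2 h and AP 2 h (limma, reference scaling, adjusted p under 0.05), which means that their changes from the shared 0 h control differed. All values are log2 differences, NP 2 h minus AP 2 h, over 2 samples each, beside a median of -0.70 over the 111 analytes, of which 9.91% were called higher and 63.1% lower. The largest below 0 were those of RAGE (-5.56), CFIII (-4.23), CD160 (-3.46), FGF-21 (-2.83), IL-12 p40 (-2.41), EGF (-2.30), CXCL10 (-2.22), FGF acidic (-2.10), CXCL13 (-2.08), C1q R1 (-2.04), CCL2 (-1.96), Endoglin (-1.79). Smaller ones were those of CCL12 (-1.62), CCL22 (-1.58), IL-15 (-1.55), CD40 (-1.50), GM-CSF (-1.50), Complement Component C5 (-1.47), Myeloperoxidase (-1.46), IL-3 (-1.42), CXCL16 (-1.37), IL-1b (-1.29), DKK-1 (-1.27), IL-33 (-1.16), IL-1ra (-1.10), Serpin F1 (-1.06), Pentraxin 3 (-0.89), Lipocalin-2 (-0.85), Angiopoietin-like 3 (-0.72), Osteoprotegerin (-0.64), LDL R (-0.45), Periostin (-0.30), Osteopontin (-0.27), LIX (-0.27). Those above 0 were Resistin (0.21), E-Selectin (0.22), Thrombopoietin (0.25), MMP-3 (0.31), Flt-3 Ligand (0.62), Pentraxin 2 (0.83), IL-6 (2.07), GDF-15 (3.39), CCL20 (3.73). Of these, CCL20, GDF-15 and IL-6 were higher under every limma setting that kept them (16 or 17), and RAGE, CFIII, CD160, FGF-21, IL-12 p40, EGF, CXCL13 and C1q R1 were lower under every one that kept them. Small differences changed direction with the scaling. Resistin, E-Selectin, Thrombopoietin and MMP-3 were each called higher in 4 of the 7 scalings and lower in 3. LDL R, Periostin, Osteopontin and LIX were each called lower in 4 and higher in 2.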

How the results depend on the processing

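Limits: 2 samples a group, uneven reference spots at NP 2 h, 24 analytes below the negative control in at least 1 NP 2 h sample, and a 0 h control outside the repeated experiments. Analytes higher and lower than in the 0 h control numbered 69 and 11. They were 5 and 101 with the authors' normalized intensity, 26 and 36 after quantile normalization, 7 and 71 with median scaling, 88 and 3 when scaled by row A of the references, 32 and 36 by row J, 61 and 6 with the offset, 58 and 6 without the lowest 0.25 of the analytes (fewer tested), 61 and 4 with only the groups compared, 16 and 2 with the methods' t-test after adjustment and 51 and 5 before it. Leaving out 1 sample gave 62 to 70 higher and 3 to 10 lower. Against AP 2 h the numbers were 11 and 70, and 4 and 96 with the authors' normalized intensity, 50 and 13 with median scaling, 30 and 31 after quantile normalization, 31 and 48 by row A, 3 and 96 by row J, 6 and 90 with the plane, 2 and 18 with the t-test after adjustment and 6 and 51 before it, and 6 to 11 and 60 to 69 with 1 sample left out. Against NP 0.5 h they were 23 and 57, and 40 and 14 with median scaling, 3 and 101 with the authors' normalized intensity, 23 and 32 after quantile normalization, 37 and 33 by row A, 3 and 89 by row J, 7 and 57 with the plane, 2 and 5 with the t-test after adjustment and 14 and 38 before it, and 16 to 23 and 50 to 56 with 1 sample left out. The authors' normalized intensity shifts every analyte by -2.80 against the reference scaling, median scaling by -1.80, row J by -0.75 and row A by 0.55, by construction, while quantile normalization and the plane shift each analyte differently. Other causes were not tested.

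Among the analytes named by the rule, these differences from the 0 h control turned their sign. With the authors' normalized intensity they were CCL12 (-0.61), CCL22 (-1.14), CD40 (-1.56), CFIII (-1.50), CXCL13 (-1.16), CXCL16 (-1.35), Complement Component C5 (-2.08), DKK-1 (-2.26), E-Selectin (-1.12), FGF-21 (-2.78), Flt-3 Ligand (-0.74), IGFBP-1 (-0.57), IGFBP-3 (-1.62), IGFBP-5 (-2.10), IL-11 (-1.57), IL-13 (-0.83), IL-15 (-1.55), IL-17A (-2.24), IL-1b (-2.06), IL-1ra (-1.67), IL-33 (-0.83), IL-6 (-1.09), LDL R (-1.51), LIF (-1.38), LIX (-1.89), MMP-3 (-1.69), Osteopontin (-2.30), Osteoprotegerin (-1.06), P-Selectin (-1.49), PDGF-BB (-1.0002), Pentraxin 2 (-0.65), Pentraxin 3 (-0.77), Periostin (-1.90), Reg3G (-1.93), Resistin (-1.47), Serpin F1 (-0.42), TIM-1 (-1.34) and Thrombopoietin (-1.20). With median scaling they were CCL22 (-0.15), CD40 (-0.57), CFIII (-0.51), CXCL13 (-0.17), CXCL16 (-0.36), Complement Component C5 (-1.09), DKK-1 (-1.26), E-Selectin (-0.13), FGF-21 (-1.78), IGFBP-3 (-0.63), IGFBP-5 (-1.11), IL-11 (-0.57), IL-15 (-0.56), IL-17A (-1.25), IL-1b (-1.06), IL-1ra (-0.68), IL-6 (-0.0943), LDL R (-0.52), LIF (-0.38), LIX (-0.89), MMP-3 (-0.70), Osteopontin (-1.31), Osteoprotegerin (-0.0661), P-Selectin (-0.50), PDGF-BB (-0.00797), Periostin (-0.91), Reg3G (-0.93), Resistin (-0.48), TIM-1 (-0.34) and Thrombopoietin (-0.21). With quantile normalization they were CFIII (-0.12), CXCL13 (-0.28), CXCL16 (-0.11), Complement Component C5 (-0.72), DKK-1 (-0.26), FGF-21 (-1.06), IL-17A (-0.0824), LIF (-0.0564), LIX (-0.0421), Osteopontin (-0.0993) and Reg3G (-0.15). By row J they were Complement Component C5 (-0.0388), DKK-1 (-0.21), FGF-21 (-0.73), IGFBP-5 (-0.0546), IL-17A (-0.20), IL-1b (-0.00914) and Osteopontin (-0.26), and by row A Angiopoietin-like 3 (0.35), CCL6 (0.34), IL-12 p40 (0.12) and RAGE (0.27). With the plane they were Angiopoietin-like 3 (0.33), CCL6 (0.0206) and FGF-21 (-0.17), and with the negative control subtracted FGF-21 (-0.84), IL-17A (-0.0292) and IL-1ra (-0.21). With 1 sample left out, FGF-21 ranged over -0.20 to 0.23, IL-1a over -1.35 to 0.0261 and RAGE over -1.04 to 0.47. The labels give both groups replicates 1 and 2 without saying that the numbers pair samples, and the deviations of same-numbered samples of NP 2 h and the 0 h control correlated at 0.0123. With the replicate block, 71 analytes were higher and 11 lower than in the 0 h control, 10 and 72 against AP 2 h, 24 and 62 against NP 0.5 h, and all 59 named analytes stayed on their side of the threshold against the 0 h control.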
